A study of Mus musculus with 8 samples.

Results

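The potassium channel genes of the mouse were examined in muscle of Grsf1cKO and WT mice. Members were all array probes whose identifier is a RefSeq transcript of a gene with a symbol starting with *Kcn*, which gave 156 probes for 98 genes out of 22911 genes with a symbol on the array. RNA was taken from muscle of 3 Grsf1cKO and 3 WT mice, all male and 17 months old, and hybridized to 8 Agilent 1-color arrays, since Grsf1cKO 1 and WT 1 were each run again on a second array. In the Grsf1cKO mice a floxed *Grsf1* gene, which encodes an RNA-binding protein of mitochondria, was deleted by Cre under the control of *Myf5*, a gene of the muscle lineage, so that other cells of the tissue keep *Grsf1*. Whether the WT mice carried Cre or the floxed allele is not given in the sources used here. The sample labels name the muscle as the vastus intermedius, and the methods name it as the rectus femoris.

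Potassium channels let potassium leave the cell and so set the resting potential and end the action potential. In skeletal muscle, inward rectifiers (*Kcnj*) hold the membrane at rest and clear potassium from the transverse tubules, voltage-gated channels (*Kcna* to *Kcnh*, *Kcnq*, *Kcns*, *Kcnv*) repolarize it, channels coupled to sulfonylurea receptors respond to ATP, two-pore channels (*Kcnk*) carry background current, and calcium- or sodium-activated channels (*Kcnm*, *Kcnn*, *Kcnt*, *Kcnu*) follow activity. The tissue also holds axons, Schwann cells, vessels and immune cells, which use channels of the same families. In bulk RNA of this kind, fewer cells of a type and less RNA per cell cannot be told apart.

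The labels were first checked. The log2 signal of *Grsf1* was 12.02 to 12.15 on the 4 Grsf1cKO arrays and 14.25 to 14.32 on the 4 WT arrays, with no overlap. The 8 skeletal muscle fiber markers were well above background in all 6 mice, with a mean log2 signal of 18.49 to 18.55 in Grsf1cKO mice and 18.47 to 18.49 in WT mice. Quantile normalization draws the brightest probes of all arrays to nearly the same values, so this closeness is no check of the fiber content. The repeat array of Grsf1cKO 1 stood apart, since 88.9% of its spots were flagged as well above background, against 66.3% to 73.1% on the other 7 arrays, and its 25th percentile signal was 55.5 units against 9.68 to 15.7. For the probes with an unadjusted *p* under 0.05, the value without this array is also given. Grsf1cKO 3 also stood apart in markers of denervated or regenerating fibers, as *Chrng*, the fetal subunit of the acetylcholine receptor, was at a log2 signal of 11.36 in this mouse and between 5.61 and 7.15 in the other 5 mice. *Myog*, a myogenic transcription factor, was at 11.31 in Grsf1cKO 3 and between 9.14 and 9.33 in the others.

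Most of the family could be seen in this muscle. Taking the brightest probe of each gene, 65 of the 98 genes were well above background in all 6 mice by the flag of the scanner software, 11 in 1 to 5 mice and 22 in no mouse. A mouse counted if all of its arrays carried the flag. The share in all 6 mice was 66.3%, beside 69.1% of all genes with a symbol. Of the 22 genes in no mouse, 14 carried the flag on the repeat array of Grsf1cKO 1 alone and 6 on no array. Detection differed between families in number, as the plot of detection by family shows, with 30 of 48 voltage-gated genes, 10 of 15 inward rectifiers, 10 of 14 two-pore genes and 10 of 12 calcium- or sodium-activated genes in all 6 mice.

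**Figure D1:**
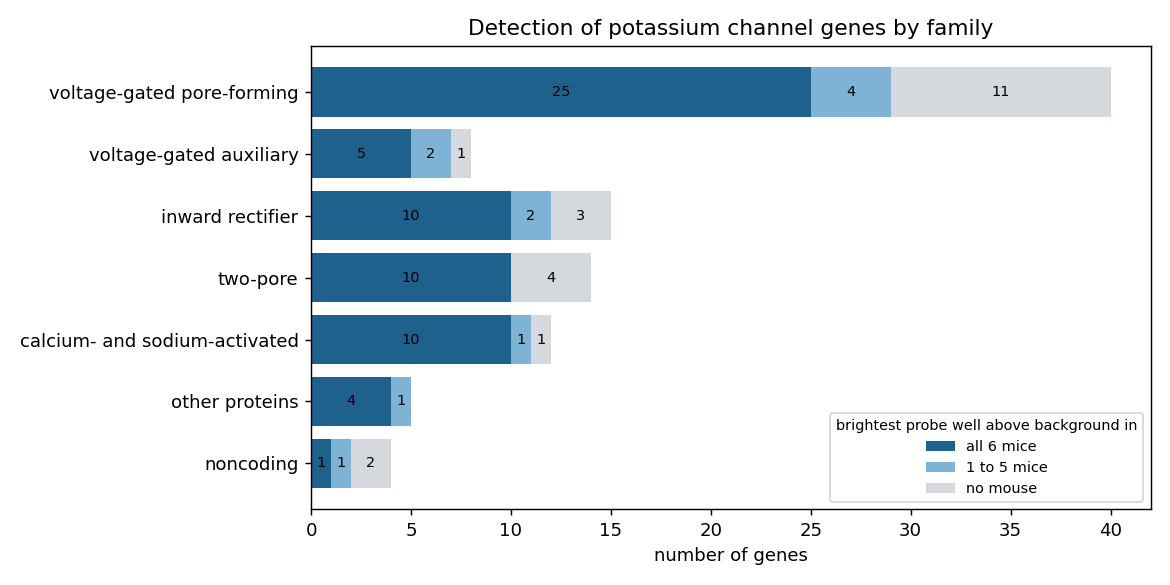
Number of potassium channel genes (horizontal axis) in each family (vertical axis) whose brightest probe was well above background in all 6 mice, in 1 to 5 mice or in no mouse. The voltage-gated pore-forming family holds 11 of the 22 genes that were in no mouse.

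The genes below this limit included *Kcna3*, the channel of T lymphocytes, *Kcna4*, *Kcnb2*, *Kcnh5*, *Kcnh7*, *Kcnh8*, *Kcnq3*, a partner of the neuronal M current, *Kcnj1*, the potassium channel of the kidney tubule, *Kcnj5*, *Kcnj16*, *Kcnk9* and *Kcnk18*. Some neighbors in the genome differed in their detection. *Kcnj2* was well above background in all 6 mice and the adjacent *Kcnj16* in no mouse, and *Kcna2* in all 6 mice while *Kcna3* and *Kcna10*, on either side of it, were so in no mouse and in 2 mice. Others did not, as *Kcna5*, *Kcna1* and *Kcna6*, which follow each other on chromosome 6, were each above background in all 6 mice, as were *Kcnj11* and *Kcnj8* together with the adjacent sulfonylurea receptor genes *Abcc8* and *Abcc9*.

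With limma, no potassium channel gene passed the criteria of the study. These ask for more than a 1.5-fold change, a false discovery rate below 0.2 and an unadjusted *p* below 0.01. With a *z*-test, the type of test the study used, 4 member probes passed, beside 0.975% of all probes. In limma all criteria were met by 0.00771% of all 38888 tested probes. The lowest adjusted *p* among the 105 tested member probes, which represent 72 genes, was 0.996 (limma, Benjamini-Hochberg). Without the false discovery rate, 4 member probes (3.81%) passed the fold and *p* limits, against 0.525% of all tested probes, namely those of *Kcnk1* and *Kcnab1* and 1 probe each of *Kcnq1* and *Kcnn4*. The *Kcnq1* probe was above background in 3 WT mice and 1 Grsf1cKO mouse, and so entered the test through the group in which it was higher. An unadjusted *p* under 0.05 was reached by 9 member probes of 9 genes, or 8.57%, against 4.25% of all tested probes. Of these, 8 were lower in Grsf1cKO mice (7.62%, against 2.96% of all probes) and 1 was higher (0.952%, against 1.29%). *Kcnk1* and *Kcnab1* were on the study's own list of altered genes, made from the same mice, and are part of these counts, so the shares are no independent evidence. The split depended on the repeat arrays and on the scaling. Without the repeat array of Grsf1cKO 1 there were 7 lower and 4 higher probes (beside 3.58% of all tested probes in either direction). With only the first array of each mouse there were 7 lower and 5 higher (beside 4.09%). Scaling each array to its 75th percentile in place of quantile normalization left 2 lower and 3 higher probes (beside 3.31% of all tested probes in either direction). Of the 9 probes, those of *Kcnk1*, *Kcnab1* and *Kcnn4* stayed under 0.05 with this scaling. These and the *Kcnq5* probe did with the slide as a block (beside 1.72% of all tested probes under 0.05). No overlap between genotypes was seen for 9 of the 105 member probes (8.57%), beside 9.35% of all probes with a value in every mouse.

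The median log2 fold change of the tested member probes was -0.05, beside -0.03 for all tested probes, and 94 of the 105 probes differed by 1.5-fold or less. The share of lower probes was 59.0%, beside 57.5% of all probes. By family, the median log2 fold change was -0.12 for 41 voltage-gated pore-forming probes, -0.29 for 6 auxiliary probes, -0.04 for 14 inward rectifier probes, 0.09 for 11 two-pore probes and 0.01 for 22 calcium- or sodium-activated probes. For inward rectifiers, no probe reached an unadjusted *p* under 0.05 in limma in the main setting, beside 4.25% of all tested probes. These medians were not compared by a test.

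**Figure D2:**
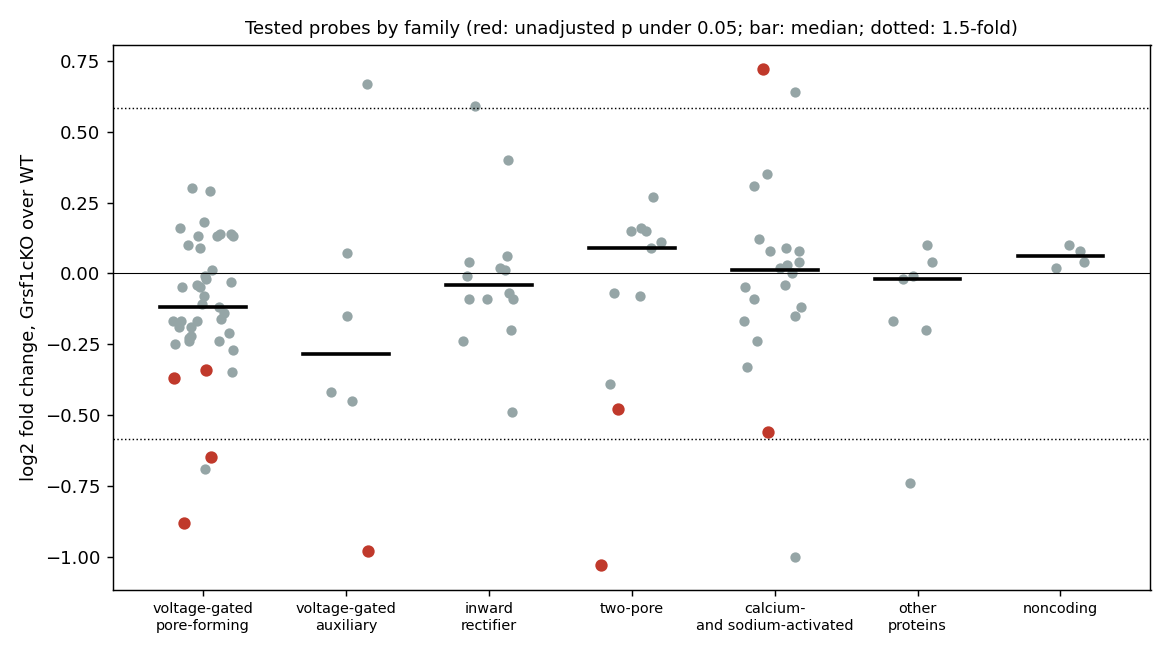
Log2 fold change of Grsf1cKO over WT (vertical axis) for each of the 105 tested probes, grouped by family, with probes at an unadjusted p under 0.05 in red, family medians as bars and 1.5-fold as dotted lines. The red points lie at -0.34 or lower except for the *Kcnn4* probe at 0.72.

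*Kcnk1*, a two-pore channel of weak inward rectification, had the lowest unadjusted *p* of the tested member probes. The log2 signal of *Kcnk1* was 6.49, 6.80 and 6.61 in the Grsf1cKO mice and 7.91, 7.50 and 7.57 in the WT mice, so that every Grsf1cKO mouse lay below every WT mouse. The mean was 6.63 ± 0.16 (SD, n = 3) in Grsf1cKO and 7.66 ± 0.22 in WT muscle, a log2 fold change of -1.03 ± 0.148 (SE), or 2.04-fold lower signal, with an unadjusted *p* of 0.000432 and an adjusted *p* of 0.996 in limma. The exact permutation test over the 6 mice gave 0.1, the smallest *p* that 3 against 3 allows. The repeat array of Grsf1cKO 1 read 5.99 and its first array 6.99, and without the repeat array the log2 fold change was -0.90 (unadjusted *p* = 0.00127, limma). Leaving out each mouse in turn gave -1.11 to -0.90, and normexp background correction gave -0.62.

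*Kcnab1* encodes a beta subunit that binds voltage-gated channels of the *Kcna* family and speeds their inactivation. Its log2 signal was 12.13, 13.15 and 12.70 in Grsf1cKO mice and 13.71, 13.56 and 13.66 in WT mice. All Grsf1cKO mice were lower, but they spread much more, with a mean of 12.66 ± 0.51 (SD, n = 3) against 13.64 ± 0.07. The log2 fold change was -0.98 ± 0.254 (SE; unadjusted *p* = 0.0083, adjusted *p* = 0.996, limma; exact permutation *p* = 0.1). Grsf1cKO 1 was the lowest mouse on both its arrays, at 12.11 and 12.16, and without this mouse the value was -0.72. Without the repeat array alone it was -0.99. The other beta subunit genes were near background. *Kcnab2* was flagged in 1 mouse and *Kcnab3* in 4 mice, with a log2 fold change of -0.45 ± 0.365 for *Kcnab3*.

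The sequences before the RefSeq starts of *Kcnk1*, *Kcnab1* and *Kcnt2*, the genes with lower signal at an unadjusted *p* under 0.01 through their only probe, are shown together with that of *Kcnn4*, whose second probe was higher, because their probes had the lowest unadjusted *p* among members above background in all 6 mice. None of them passed the criteria in limma. Each is the 250 bases upstream, 5′ to 3′ on the plus strand (RefSeq, GRCm38.p6), at chr8:125994852-125995101 for *Kcnk1*, at chr3:64948962-64949211, chr3:65108764-65109013 and chr3:65187853-65188102 for 3 alternative starts of *Kcnab1*, at chr1:140245468-140245717 for *Kcnt2* and at chr7:24370013-24370262 for *Kcnn4*. Capitals mark GC boxes (GGGCGG on either strand), the motif of Sp1.
Kcnk1: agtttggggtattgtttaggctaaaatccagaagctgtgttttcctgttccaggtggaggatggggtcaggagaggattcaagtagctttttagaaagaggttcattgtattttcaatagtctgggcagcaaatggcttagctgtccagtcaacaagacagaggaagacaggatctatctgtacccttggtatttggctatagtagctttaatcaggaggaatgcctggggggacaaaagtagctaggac
Kcnab1, first start: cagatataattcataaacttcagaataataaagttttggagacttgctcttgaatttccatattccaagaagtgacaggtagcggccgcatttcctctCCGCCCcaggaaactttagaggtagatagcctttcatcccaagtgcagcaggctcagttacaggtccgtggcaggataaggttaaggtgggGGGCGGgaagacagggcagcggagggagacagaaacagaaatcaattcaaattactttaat
Kcnab1, second start: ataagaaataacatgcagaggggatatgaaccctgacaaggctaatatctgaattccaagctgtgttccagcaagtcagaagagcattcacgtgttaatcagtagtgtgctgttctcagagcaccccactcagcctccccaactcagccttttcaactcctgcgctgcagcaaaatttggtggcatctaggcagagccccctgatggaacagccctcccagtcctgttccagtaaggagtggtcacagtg
Kcnab1, last start: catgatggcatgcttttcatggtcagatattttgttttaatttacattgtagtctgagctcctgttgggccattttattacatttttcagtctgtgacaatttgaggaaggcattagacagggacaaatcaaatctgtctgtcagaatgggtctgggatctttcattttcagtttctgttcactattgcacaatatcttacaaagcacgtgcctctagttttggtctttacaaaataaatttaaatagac
Kcnt2: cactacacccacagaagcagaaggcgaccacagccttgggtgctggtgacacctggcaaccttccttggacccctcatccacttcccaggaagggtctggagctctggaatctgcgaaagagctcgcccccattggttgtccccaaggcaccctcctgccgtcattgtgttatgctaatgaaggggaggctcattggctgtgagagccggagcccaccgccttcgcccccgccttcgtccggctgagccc
Kcnn4: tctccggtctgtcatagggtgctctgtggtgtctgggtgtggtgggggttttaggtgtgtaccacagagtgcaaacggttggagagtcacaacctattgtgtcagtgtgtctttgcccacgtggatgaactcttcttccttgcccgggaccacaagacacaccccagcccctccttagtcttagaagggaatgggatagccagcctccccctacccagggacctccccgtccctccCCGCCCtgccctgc
The 250 bases of *Kcnk1* held 0 CG dinucleotides, those of *Kcnt2* 10, those of *Kcnn4* 6, and those of the *Kcnab1* starts 6, 2 and 1. GC boxes were found in the first *Kcnab1* window (2) and in that of *Kcnn4* (1), and neither CAGCTG, the E-box preferred by myogenic factors, nor TATAAA was found in any of the 6 on either strand. These counts leave out the 50 bases after the start. With them, the *Kcnk1* window held 10 CG dinucleotides and the last of the 3 *Kcnab1* windows held a TATAAA. These windows need not be the start used in this tissue, since the arrays measure the transcript and not its start.

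Promoter windows were available for 72 of the 98 genes, 97 windows of 300 bases in all, from 250 bases before to 50 after each start, and several windows can belong to the same gene. Windows of potassium channel genes detected in all 6 mice held a median of 9 CG dinucleotides (66 windows), and those of channel genes detected in no mouse held a median of 9.5 (20 windows). Over all genes with a symbol the medians were 18 for those detected in all 6 mice and 3 for those detected in no mouse. The medians of detected and undetected channel genes thus lay closer together than those of genes at large, a difference that was not tested. CAGCTG was present in 31.8% of the windows of channel genes detected in all 6 mice and in 15.0% of those detected in no mouse, where all genes had 16.3% and 15.1% (16.3% of all windows in the table). For channel genes detected in 1 to 5 mice it was present in 0 of 11 windows. Several windows with CAGCTG belong to the same gene, as for *Kcnc2*, *Kcnk2* and *Kcnn1*, and for *Kcnj16* among genes in no mouse. Some windows of *Kcnc2* also overlap each other, so these are shares of windows that are not independent, and not shares of genes. GGGCGG was present in 45.5% of the windows of channel genes detected in all 6 mice and in 55.0% of those detected in no mouse. All genes had 56.1% and 16.4% (35.7% of all windows). TATAAA was present in 4.55% and 5.0% of these same sets of channel windows, where all genes had 8.87% and 23.5%. It was present in 5.15% of all channel windows and in 13.6% of all windows. Of the 5 channel windows with TATAAA, 4 belonged to inward rectifiers (23.5% of their 17 windows). Motifs were counted on both strands, none can be matched by the same 6 bases as another, and a match does not show binding.

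Other two-pore genes showed smaller differences. *Kcnk2*, a channel opened by stretch and lipids, read 5.19, 5.56 and 5.28 in Grsf1cKO mice and 5.78, 6.07 and 5.62 in WT mice. The genotypes did not overlap, although Grsf1cKO 2 and WT 3 lay close together, and the log2 fold change was -0.48 ± 0.16 (SE; unadjusted *p* = 0.0241, adjusted *p* = 0.996, limma). Without the repeat array of Grsf1cKO 1 it was -0.38, with scaling to the 75th percentile -0.26 (unadjusted *p* = 0.344), with normexp -0.22 and with the slide as a block the unadjusted *p* was 0.213. *Kcnk3* and *Kcnk5*, acid-sensitive background channels, had log2 fold changes of -0.07 ± 0.131 and 0.09 ± 0.238. With first arrays only, the difference of *Kcnk5* was 0.48. *Kcnk6* had probes on both sides of 0, the brightest at 0.11 and the other at -0.39 (-0.20 with first arrays), and *Kcnk16* was at 0.27 ± 0.174 (0.11 with first arrays).

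Among the voltage-gated pore-forming genes, 4 of 41 tested probes were lower at an unadjusted *p* under 0.05 and 0 were higher, beside 2.96% lower and 1.29% higher over all tested probes. The 4 include the *Kcnq1* probe that entered through the WT mice, and with scaling to the 75th percentile each of the 4 had an unadjusted *p* between 0.0872 and 0.199. *Kcnf1*, a subunit that forms no channel alone and modifies other voltage-gated subunits, was at 6.31, 6.95 and 5.79 in Grsf1cKO mice and at 7.38, 7.37 and 6.93 in WT mice. Grsf1cKO 2 and WT 3 were nearly equal, and the log2 fold change was -0.88 ± 0.307 (SE; unadjusted *p* = 0.0286, adjusted *p* = 0.996, limma). Without Grsf1cKO 3, the lowest mouse, it was -0.60 (unadjusted *p* = 0.0607), without the repeat array of Grsf1cKO 1 it was -0.81 (unadjusted *p* = 0.0487), and with normexp it was -0.51.

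*Kcnh4*, a member of the ether-a-go-go group, had a log2 fold change of -0.34 ± 0.136 on its brightest probe (unadjusted *p* = 0.0462, limma) and of -0.23 ± 0.104 on the other, where the genotypes did not overlap. The brightest probe was at -0.30 without the repeat array of Grsf1cKO 1 (unadjusted *p* = 0.104) and at -0.18 with the slide as a block (unadjusted *p* = 0.25). *Kcnq5*, a channel of the M-current group that is made in muscle, had probes at -0.21, -0.37 and -0.69. On the second of these, the log2 signal was 6.36, 6.58 and 6.44 in Grsf1cKO mice and 6.80, 6.94 and 6.74 in WT mice, without overlap (unadjusted *p* = 0.012, limma). With scaling to the 75th percentile this probe was at -0.24 (unadjusted *p* = 0.14), and without the repeat array of Grsf1cKO 1 at -0.40 (unadjusted *p* = 0.0106). With normexp it was at -0.19 (unadjusted *p* = 0.0461, limma). The brightest of the 3 probes overlapped between genotypes, and the dimmest was also at -0.40 without the repeat array, and at -0.16 with normexp.

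*Kcnq1*, the pore of a slow repolarizing channel of the heart that pairs with *Kcne1*, gave different answers with different probes, and the plot of single arrays shows them side by side. The 4 member probes had log2 fold changes of -0.27 ± 0.133, -0.08 ± 0.165, -0.19 ± 0.235 and -0.65 ± 0.167, from the brightest to the dimmest, and the brightest was at -0.16 with first arrays. On the dimmest, which was flagged as above background on all 4 WT arrays but only on the 2 arrays of Grsf1cKO 1, the log2 signal was 4.38, 4.38 and 4.48 in Grsf1cKO mice and 5.03, 4.76 and 5.39 in WT mice, without overlap (unadjusted *p* = 0.00822, adjusted *p* = 0.996, limma). Grsf1cKO 1 read 5.04 on its first array and 3.71 on the repeat, so that its first array overlapped the WT arrays, and without the repeat array the value was -0.45 (unadjusted *p* = 0.117). With normexp it was -0.08 (unadjusted *p* = 0.348). The Grsf1cKO signal of this probe is thus mostly not well above background, and no conclusion is drawn from its fold change or *p*. The study's list of altered genes holds *Kcnq1* through another probe, whose identifier is not a RefSeq transcript and which is therefore no member. That probe was at 3.73, 4.34 and 4.23 in Grsf1cKO mice and 2.67, 2.15 and 2.09 in WT mice. It was higher in every Grsf1cKO mouse, but only the repeat array of Grsf1cKO 1 carried the flag for it, so that it was not tested and no fold is given.

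*Kcng2* and *Kcnb2* are the other potassium channel genes of that list. *Kcng2*, a silent subunit of voltage-gated channels, has a brighter probe, above background in all 6 mice, at 6.97, 6.67 and 6.43 in Grsf1cKO mice and 6.63, 6.60 and 6.55 in WT mice. These values overlapped, and the log2 fold change of 0.10 ± 0.15 became -0.01 without the repeat array of Grsf1cKO 1. Its second probe was at 3.04, 3.57 and 4.27 against 2.39, 1.93 and 2.73, higher in every Grsf1cKO mouse, with the flag on the repeat array of Grsf1cKO 1 alone. *Kcnb2*, a delayed rectifier, was at 4.41, 3.43 and 3.30 in Grsf1cKO mice and 4.79, 4.10 and 3.98 in WT mice. It carried the flag on the 2 repeat arrays only, so that no fold is given. Neither this probe nor the second probe of *Kcng2* entered the test.

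**Figure D3:**
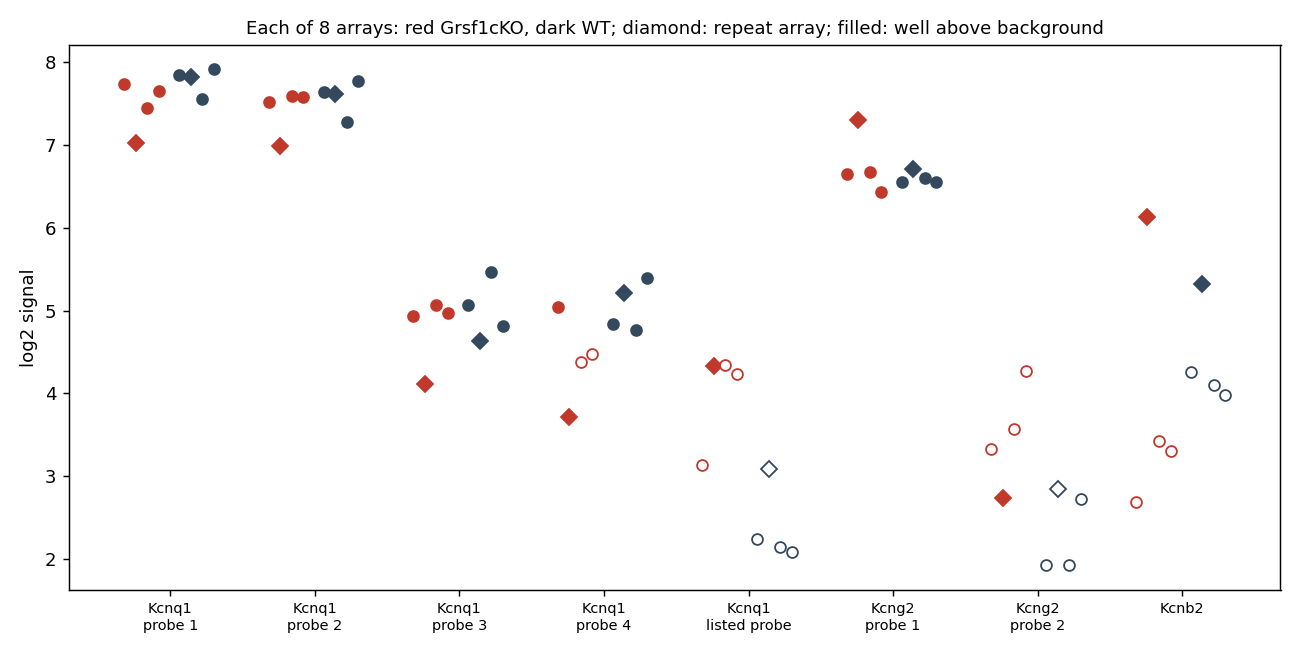
Log2 signal (vertical axis) on each of the 8 arrays for the probes of Kcnq1, Kcng2 and Kcnb2 (horizontal axis, each gene's probes from the brightest), Grsf1cKO in red and WT dark, with repeat arrays as diamonds and arrays well above background filled. On the listed Kcnq1 probe and the second Kcng2 probe the only filled point is the repeat array of Grsf1cKO 1, and signals of different probes cannot be compared with each other.

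In the main setting, the calcium- and sodium-activated genes held the only member probe that was higher at an unadjusted *p* under 0.05. It belongs to *Kcnn4*, the intermediate-conductance channel of blood and proliferating cells, and was at 6.84, 6.69 and 7.16 in Grsf1cKO mice and at 6.06, 6.14 and 6.33 in WT mice, without overlap. The log2 fold change was 0.72 ± 0.151 (SE; unadjusted *p* = 0.00319, adjusted *p* = 0.996, limma; exact permutation *p* = 0.1), and 0.63 without the repeat array of Grsf1cKO 1. With normexp it was 0.44. The brightest *Kcnn4* probe was at 8.38, 8.10 and 8.95 against 8.16, 8.09 and 8.13, which overlapped (0.35 ± 0.217), and the dimmest was at 0.03 ± 0.305. Grsf1cKO 3 was the highest mouse on all 3 probes.

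*Kcnn3*, a small-conductance channel known for its return in denervated muscle, was at 6.52, 7.54 and 7.67 in Grsf1cKO mice and at 6.56, 6.38 and 6.87 in WT mice. Grsf1cKO 2 and 3 were above all WT mice and Grsf1cKO 1 was not, and the log2 fold change of 0.64 ± 0.329 had an unadjusted *p* of 0.0986 in limma. Without the repeat array of Grsf1cKO 1 the value was 0.79 (unadjusted *p* = 0.0203), without Grsf1cKO 1 it was 1.01 (unadjusted *p* = 0.0016), and without Grsf1cKO 3 it was 0.43. The dimmer probe of *Kcnn3* was at 0.31 ± 0.357 (unadjusted *p* = 0.426). The 5 denervation markers had a median log2 fold change of 0.71. At an unadjusted *p* under 0.05 (limma), 1 of 5 was higher and 0 lower, beside 1.29% and 2.96% of all tested probes. The higher one was *Chrna1*, another subunit of the acetylcholine receptor (unadjusted *p* = 0.0311, adjusted *p* = 0.996, limma). Its log2 signal was 13.22, 12.79 and 14.04 in Grsf1cKO mice and 12.3, 12.56 and 12.52 in WT mice, without overlap. The mean log2 signal of the 5 markers was 9.31 to 11.50 in Grsf1cKO mice and 9.32 to 9.40 in WT mice, the highest value being that of Grsf1cKO 3. Of the 4 macrophage markers, 0 had an unadjusted *p* under 0.05 (limma), beside 4.25% of all tested probes. The mean log2 signal of these markers was 11.77 to 12.69 in Grsf1cKO and 11.71 to 11.94 in WT mice. Of the 4 slow fiber markers, only *Myl2*, a myosin light chain, was higher at an unadjusted *p* under 0.05 (0.0489, limma), beside 1.29% of all tested probes. The median log2 fold change of the 4 markers was 0.57, with *Myh7*, the slow myosin heavy chain, at -0.59. Their mean log2 signal was 11.45 to 13.11 in Grsf1cKO and 11.18 to 12.15 in WT mice. *Tnni1*, a troponin of slow fibers, was at 14.33 in Grsf1cKO 3 and at 10.35 to 11.21 in the other mice (unadjusted *p* = 0.29, limma). The part of these lists in the *Kcnn3* and *Kcnn4* values was not tested. *Kcnn2*, the small-conductance channel with 3 tested probes, was at -0.24, -0.15 and -0.33.

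*Kcnt2*, a sodium-activated channel, was at 5.63, 5.72 and 5.73 in Grsf1cKO mice and at 6.35, 6.34 and 6.07 in WT mice. The Grsf1cKO mice lay below the WT mice, with a log2 fold change of -0.56 ± 0.109 (SE; unadjusted *p* = 0.00206, adjusted *p* = 0.996, limma; exact permutation *p* = 0.1). The arrays of Grsf1cKO 1 differed, at 6.07 on the first and 5.18 on the repeat, and without the repeat array the log2 fold change was -0.44. The first array alone would be level with WT 3. With scaling to the 75th percentile the value was -0.37 (unadjusted *p* = 0.135), and with the slide as a block the unadjusted *p* was 0.171. *Kcnma1*, the large-conductance calcium-activated channel, had 5 probes, all above background in all 6 mice, and their log2 fold changes lay between -0.05 and 0.09. *Kcnmb1*, its beta subunit in smooth muscle, was at -0.12 ± 0.178. *Kcnmb2*, another beta subunit, was flagged in 4 of 6 mice, and its log2 signal was 4.05, 3.01 and 4.94 in Grsf1cKO mice and 5.29, 4.07 and 5.64 in WT mice, with overlap (unadjusted *p* = 0.148, limma). Its log2 fold change lay between -1.47 and -0.51 when a mouse was left out, with an unadjusted *p* of 0.0468 without Grsf1cKO 3, and was -0.22 with normexp.

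**Figure D4:**
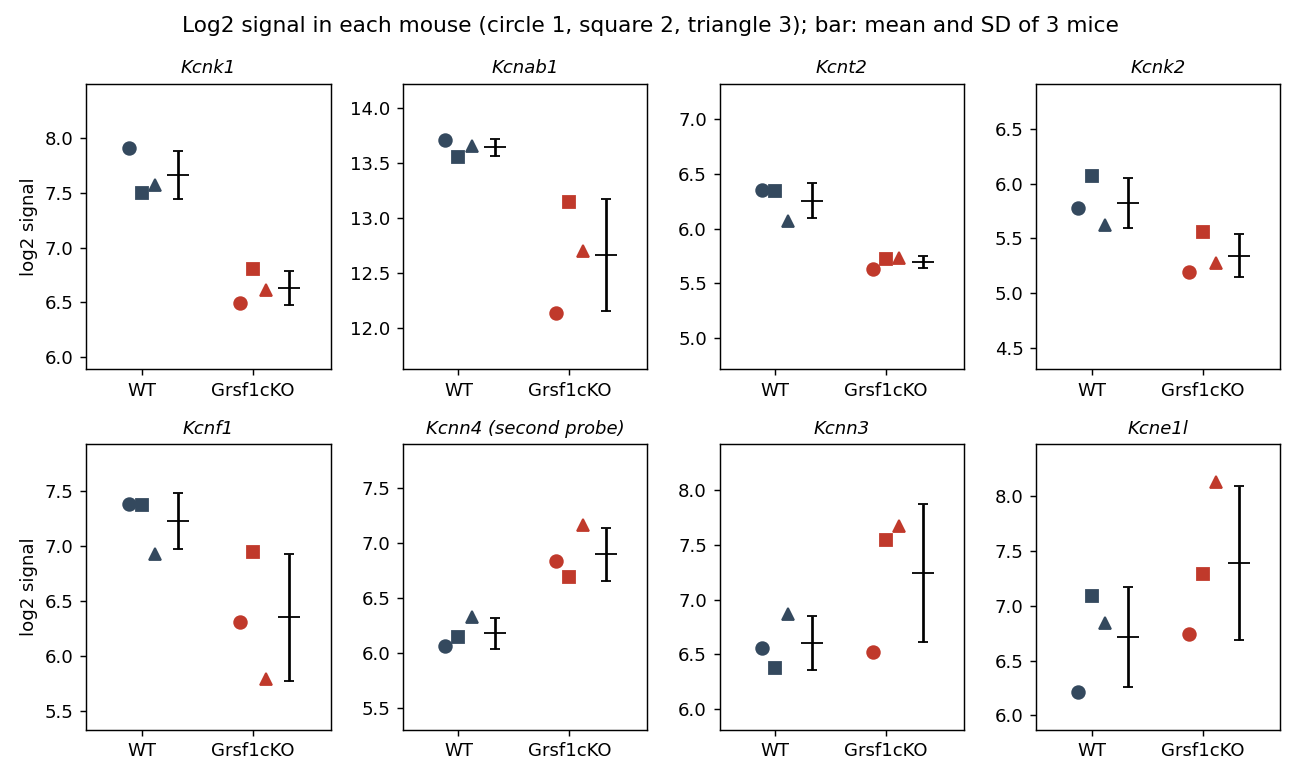
Log2 signal (vertical axis, 2.6 units in each panel) in each of 3 WT and 3 Grsf1cKO mice for 8 potassium channel probes, with the mean and SD of each genotype as a bar. The genotypes do not overlap for Kcnk1, Kcnab1, Kcnt2, Kcnk2 and the second Kcnn4 probe, whereas they overlap for Kcnf1, Kcnn3 and Kcne1l.

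Inward rectifiers carry much of the resting potassium current of muscle. Of their 14 tested probes, 0 had an unadjusted *p* under 0.05 in the main setting (limma), beside 4.25% of all tested probes. The log2 fold changes lay between -0.49 and 0.59 with a median of -0.04. *Kcnj2* was at 14.27, 14.05 and 14.09 in Grsf1cKO mice and at 14.50, 14.41 and 14.24 in WT mice, with a log2 fold change of -0.24 ± 0.112 (unadjusted *p* = 0.0706, limma). On its second probe the genotypes did not overlap, and the value was -0.20 ± 0.0931. *Kcnj12*, its close relative, was at 14.61, 14.68 and 14.35 in Grsf1cKO mice and at 14.55, 14.49 and 14.55 in WT mice. These overlapped, with a log2 fold change of 0.02 ± 0.111. For the pores of the ATP-sensitive channels, *Kcnj11* in the muscle fiber and *Kcnj8* in vessels, the values were -0.01 ± 0.211 and -0.09 ± 0.108.

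*Kcnj9*, a subunit of the channels opened by G proteins, was above background in all 3 Grsf1cKO mice and in 1 WT mouse, and so entered the test through the group in which it was higher (0.59 ± 0.373, unadjusted *p* = 0.163, limma). It read 4.43 on the first array of Grsf1cKO 1 and 7.53 on its repeat, and without the repeat array the log2 fold change was 0.08. With a replicate block its unadjusted *p* was 0.0317 (limma), where 6.2% of all tested probes were under 0.05. Other member probes also fell under 0.05 only there, as *Kcnmb2* at 0.00197 and the dimmest *Kcnq5* probe at 0.00133 did against the main setting (limma). *Kcnj3*, of the same group as *Kcnj9*, was at -0.49 ± 0.246, and *Kcnj14* at 0.40 ± 0.533. The second probe of *Kcnj14* was flagged on 2 of 4 Grsf1cKO arrays, 1 of them the repeat array of Grsf1cKO 1, and on 0 of 4 WT arrays, and no fold is given.

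Channels of the fiber, nerve and vessel with known roles were described as a group of 23 genes. All 23 were well above background in all 6 mice, beside 69.1% of all named genes. The list was chosen with earlier results of these data known, so its full detection is no independent result. On their brightest probe 14 had a negative and 9 a positive log2 fold change, where 57.5% of all tested probes were negative, the median was -0.07, and 18 lay within 0.25 of 0. Of the 23, 1 (*Kcnk2*) had an unadjusted *p* under 0.05 on this probe, beside 4.25% of all tested probes, and *Kcnk1*, *Kcnab1*, *Kcnf1* and *Kcnt2* are not among the 23. *Kcnc1* and *Kcnc4*, fast voltage-gated channels, were at -0.17 ± 0.133 and -0.16 ± 0.25, and *Kcne3*, the beta subunit that joins *Kcnc4* in muscle, at 0.07 ± 0.185. *Kcna7*, a channel of muscle, was at -0.22 ± 0.172, *Kcna5*, a channel of vessels and heart, at -0.17 ± 0.247, and *Kcna1* and *Kcna2*, the channels of myelinated axons, at 0.18 ± 0.178 and -0.03 ± 0.143. *Kcne1*, the partner of *Kcnq1*, was at -0.42 ± 0.39.

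Of the auxiliary genes, *Kcne1l* was at 6.74, 7.29 and 8.13 in Grsf1cKO mice and at 6.21, 7.09 and 6.84 in WT mice. Grsf1cKO 3 was the highest, and the log2 fold change of 0.67 ± 0.4 (unadjusted *p* = 0.144, limma) was 0.30 without this mouse. It was 0.86 without the repeat array of Grsf1cKO 1 (unadjusted *p* = 0.0452) and 0.99 without Grsf1cKO 1 (unadjusted *p* = 0.0367). *Kcnip4*, a calcium-binding partner of *Kcnd* channels, was at 7.55, 7.59 and 6.36 against 8.41, 7.57 and 7.75. Here Grsf1cKO 3 was the lowest, and the log2 fold change of -0.74 ± 0.396 was -0.34 without it. *Kcnip3* and *Kcnrg*, other proteins outside the channel families, were at -0.17 ± 0.146 and 0.04 ± 0.142. *Kcnq1ot1*, the noncoding antisense transcript of the imprinted *Kcnq1* locus, had 4 probes above background in all 6 mice, with log2 fold changes of 0.02 to 0.10, and 1 probe flagged on no array.

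Probes of the same gene could be compared for 21 genes with 2 or more tested probes. In 15 of them all probes had the same sign, and the difference between the highest and the lowest log2 fold change had a median of 0.15. It was largest for *Kcnn4* (0.69) and *Kcnq1* (0.57), for *Kcnq1* through its dimmest probe. It was small for genes with bright probes such as *Kcnj2* (0.04), *Kcnj12* (0.04) and *Kcnma1* (0.14). Among 21 partners of these channels and potassium transporters (sulfonylurea receptors, subunits of the sodium-potassium pump, cation-chloride cotransporters and others), 20 were tested. In limma 0 passed the criteria, beside 0.00771% of all tested probes. An unadjusted *p* under 0.05 was reached by 0 in either direction, beside 4.25% of all tested probes. The median log2 fold change of the 20 was -0.06.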

How the data were processed

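RNA from muscle of 3 Grsf1cKO and 3 WT mice was hybridized to 8 Agilent 1-color arrays. The authors deposited Feature Extraction (version 12.0.3.1) intensities for each spot, already corrected for background, and a table of *z*-scores. The deposited score of each spot equaled its log2 signal centered and scaled within its array, to within 0.005. According to the methods, intensities were quantile normalized and compared by *z*-test. RefSeq tables of GRCm38.p6 gave symbols to 32994 of the 56605 probes through their accessions.

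Here the log2 processed signal was quantile normalized over the 8 arrays, without control spots and with flagged spots set to missing. Spots of a probe, and then arrays of a mouse, were averaged. A probe entered the test if it carried the flag for signal well above background on every array of at least 3 of the 6 mice, and had values for at least 2 mice per genotype. The test was limma (version 3.58.1, R 4.3.3) with a term for genotype alone and Benjamini-Hochberg adjustment over all 38888 probes. A gene is represented by its brightest probe. Single values were compared by 2-sided exact permutation of the 6 mice. No spot was saturated, and precision is limited by the number of mice. In simulated data, limma called 133 of 200 probes given a log2 change of 1, and 30 of the remaining probes (38859 in all). The adjusted *p* depends on how many probes change, and in the real data 3 probes met all criteria. The simulated recovery therefore does not carry over to these data, and a probe that was not called is not shown to be unchanged.

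Named genes are those of the study's list, those past the criteria, those with genotypes that do not overlap, up to 3 per family with the largest change, and 23 channels of known role. Members, families, marker lists and rules were chosen with earlier results of these data known. Alternatives covered scaling, background correction, the deposited scores, the detection filter, repeat arrays, slide, intensity trend, *z*-test, replicate block and each mouse left out. Results of some named genes are not reported here.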

Additional observations from a re-analysis of the deposited data

How the results depend on the processing

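Under every alternative with limma, 0 potassium channel probes passed the criteria, and 4 did with the *z*-test from the normal distribution, which called 0.975% of all probes. The 9 probes at an unadjusted *p* under 0.05 (beside 4.25% of all tested probes) became 5 with scaling to the 75th percentile (beside 3.31%), 4 with the slide as a block (beside 1.72%) and 14 with a replicate block (beside 6.2%). In this check deviations of same-numbered mice correlated by 0.232, 0.097 and 0.104. The labels do not say that numbers mark a shared litter or day, although each of the 6 mice correlated best with a mouse of its own number. The median log2 fold change of member probes, -0.05, was 0.04 with scaling to the 75th percentile, which moved the median of all tested probes by 0.04. Probes without overlap numbered 9 (beside 9.35% of all probes), 14 with first arrays (13.3%, beside 9.14%) and 17 to 22 when a mouse was left out, where fewer mice are compared (beside 17.4% to 20.6%).

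Of 315 values for 19 probes under alternatives, 304 kept the direction. *Kcng2* turned to -0.01 without the repeat array of Grsf1cKO 1 and lay between -0.04 and 0.23 with a mouse left out. The second brightest *Kcnq1* probe turned to 0.02 with the 75th percentile, to 0.00 with first arrays and to 0.01 without the repeat of Grsf1cKO 1, and lay between -0.22 and 0.03 with a mouse left out. The third *Kcnq1* probe turned to 0.07 with the 75th percentile, 0.05 with the slide as a block, 0.14 within slide 2, and lay between -0.31 and 0.03 with a mouse left out. The cause was not tested. The log2 fold change of *Kcnk1* ranged from -1.16 to -0.62, that of *Kcnab1* from -1.23 to -0.72 and that of *Kcnt2* from -0.70 to -0.25, the values nearest 0 for *Kcnk1* and *Kcnt2* being with normexp and an offset of 50. Slide 2 holds all Grsf1cKO arrays and 2 WT arrays, and within it *Kcnk1* was at -1.07, *Kcnab1* at -1.02 and the second *Kcnn4* probe at 0.79. With the slide as a block these were -1.02, -1.04 and 0.83. Signals near background limit the dim members, and with 3 mice per genotype the exact test cannot go below 0.1.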
